A study of Mus musculus with 3 samples.

Results

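The comparison described here set B + A 10, mice given busulfan and then alginate oligosaccharides (AOS), against B + A 0, mice given busulfan and then water, in single cells of the small intestine. Busulfan is an alkylating drug that crosslinks DNA and injures dividing cells, and AOS are short chains cut from the seaweed polymer alginate. Male outbred ICR mice of 3 weeks received a single injection of busulfan at 40 mg/kg body weight in both groups, and from the next day a daily gavage for 2 weeks of water (AOS at 0 mg/kg) or of AOS at 10 mg/kg. A library labelled AOS 0, from mice that received neither agent, is given as a level beside the others and enters no ratio. Each group was 1 library, prepared from the combined cells of 6 mice with 10x Genomics 3′ version 2 chemistry, so no ratio below has a replicate check, no test was possible, and intervals cover counting error only. The source-name labels of the busulfan libraries name other groups than their titles, descriptions and treatment labels do, and the groups follow the latter 3.

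Cells in which α-defensin transcripts made up 1500 or more of 10000 unique molecular identifiers (UMIs, the counted RNA molecules) were set aside, as one such cell outweighs many others in these transcripts. This left 3006 of 3195 cells with 21473238 UMIs in B + A 0, and 5161 of 5352 cells with 20754401 UMIs in B + A 10. Of 13891 genes in the table, 8003 had 300 or more UMIs in the 2 libraries together, and these are the genes compared. Just inside that limit were Orai2 and Fut4, with 300 UMIs each and log2 ratios of 0.15 and −0.44, and just outside were Tfe3 and Fdxr, with 299 each and 0.14 and 0.17. A ratio is the share of UMIs that a gene took in B + A 10 divided by its share in B + A 0, and levels are UMIs per 1000000 outside the set-aside cells, always in the order of AOS 0, then B + A 0, then B + A 10. In brackets beside a ratio stands its exact binomial 95% interval. The libraries differed in depth: the median cell held 6242 UMIs in B + A 0 and 3455 in B + A 10, and the lowest cell 3929 and 2051. Only 31 cell barcodes occurred in both libraries, 0.970% of the smaller one.

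The lining of the small intestine is renewed from stem cells at the base of the crypts. Their daughters become absorptive enterocytes, which take up nutrients through a brush border, or secretory cells: goblet cells that make mucus, Paneth cells that release α-defensins and lysozyme, and enteroendocrine cells that release hormones. Interferon-stimulated genes make up the cell's antiviral programme and are switched on through promoter elements bound by STAT and IRF factors. T lymphocytes that lie between the epithelial cells come away with them when the tissue is dissociated.

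Most genes differed little. The median log2 ratio over the 8003 genes was 0.01, and the quartiles were −0.11 and 0.14. A gene was called higher or lower past a log2 ratio of 0.32 in either direction, a ratio of 5/4 or 4/5, which is a limit of size and not a test. By that limit 492 genes, 6.15% of those compared, were higher in B + A 10 and 287, 3.59%, were lower. The called genes were 63.2% higher ones, and this share was 85.5% when no cell was set aside, 43.7% when the cells of both libraries had to hold 3929 UMIs, and 40.3% when the mix of cell clusters was held equal as well. At 1.5-fold, 60 genes were higher and 35 lower. The plot of ratio against level shows the named families over this background.

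**Figure D1:**
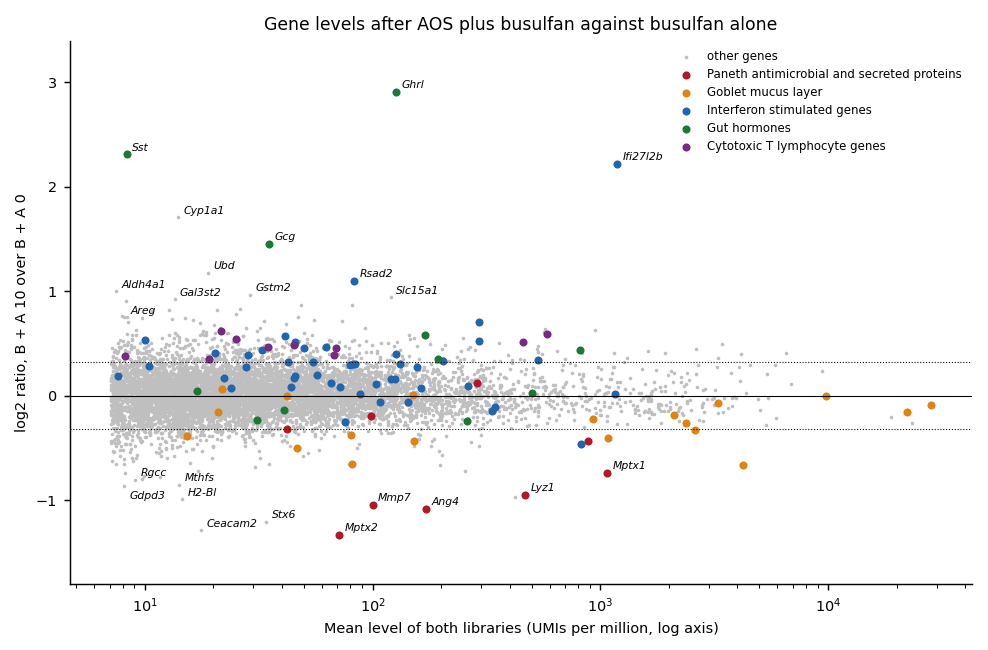
Each point is 1 of the compared genes, placed by its mean level in both libraries (UMIs per 1000000, log axis) and by the log2 ratio of B + A 10 over B + A 0; colours mark 5 gene families and dotted lines the limit of a called gene. Interferon-stimulated genes (blue) and T lymphocyte genes (purple) sit mostly above 0, Paneth and goblet genes (red and orange) mostly below, and Defa21, Defa22 and Gm7849 lie above the range drawn.

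A group of genes named as α-defensins was found almost wholly in B + A 10. Outside the defensin-rich cells, Gm7849, also called Defa42, had 1 UMI in B + A 0 and 1355 in B + A 10, and none in AOS 0, a ratio of 1402 with a 95% interval of 251 to 55410. Defa21 had 0 UMIs in B + A 0 and 737 in B + A 10, at least 254-fold higher if the floor of 3 counts for the library stands for 0. Defa22 had 9 and 825 UMIs, a ratio of 94.8 (49.7 to 208). The 3 genes lie in the defensin cluster of chromosome 8. The same transcripts filled some of the set-aside cells, where the values were 12632 UMIs of Defa21, 13816 of Defa22 and 18118 of Gm7849 in B + A 10, against 10, 325 and 14 in B + A 0 and 3, 57 and 5 in AOS 0. These cells numbered 191 in B + A 10, 189 in B + A 0 and 109 in AOS 0, and they held 9.78%, 17.6% and 7.24% of the UMIs of the library.

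Outside the set-aside cells of B + A 10 the transcripts were spread thinly. Gm7849 was found in 19.67% of those cells, Defa21 in 11.12% and Defa22 in 11.99%. The 3 cells with most UMIs held 5.46%, 9.23% and 10.3% of them. B + A 0 held so few of these UMIs that a cluster could reach the 20 needed for a ratio only through B + A 10. The direction within clusters was therefore fixed by that limit. Among the set-aside cells of B + A 10 the transcripts sat in few cells. Of the 191 defensin-rich cells, 32 had 10 or more UMIs of Gm7849. As these 32 cells were picked by that gene, their 99.1% of its UMIs among the set-aside cells follows in part from the choice. They also held 99.2% of the UMIs of Defa21 and 98.2% of those of Defa22 among the set-aside cells. All 15 cells with 10 or more UMIs of Defa21 also had 10 or more of Defa22 and of Gm7849. Defa20 followed them, with 60.1 UMIs per 10000 in the 32 cells and 0.302 in the other 159, as did Defa3 with 49.6 and 1.38. Gm14851 was also higher in the 32 cells, with 171 UMIs per 10000 against 44.3, as were Defa26 with 13.6 against 6.19 and Defa34 with 28.8 against 20.9. Several defensins ran the other way: Defa35 had 163 UMIs per 10000 against 381 in the other cells, Gm15292 22.4 against 42.7, and Defa29 287 against 438. Defa24, the most abundant of them, had 2326 against 2521, and Lyz1, the Paneth lysozyme, 163 against 175, and both are Paneth transcripts. In B + A 0, 2 of 189 defensin-rich cells had 10 UMIs of Defa22, and none had 10 of Defa21 or Gm7849.

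**Figure D2:**
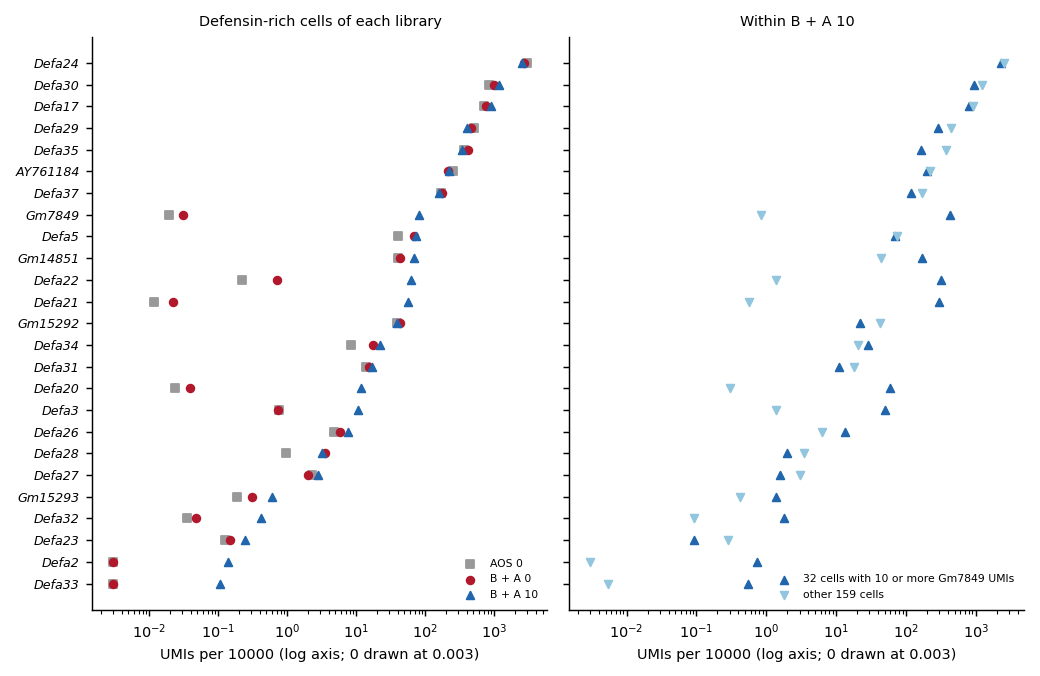
UMIs per 10000 (log axis, with 0 drawn at 0.003) of each α-defensin gene in the defensin-rich cells, on the left for each library and on the right within B + A 10, where the 32 cells with 10 or more Gm7849 UMIs (dark) are set beside the other 159 (light). Defa21, Defa22, Gm7849 and Defa20 stand at 11.6 or more in B + A 10 and at 0.711 or less in both other libraries, while Defa24, Defa30 and Defa17 differ far less between them.

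These genes have near-identical copies, which is why their sequences are shown. Over the coding sequence of 282 bases Defa21 and Defa22 were 99.3% identical, and over 351 bases Gm7849 and Defa29 were 96.6% identical. Defa21 shared 78.7% with Defa24, whereas Gm7849 shared only 62.1% with Defa21 and with Defa22. Reads from such copies can be assigned to the wrong member, and each gene's own value is uncertain to that extent. The last 108 coding bases of each pair follow, 5′ to 3′ (GENCODE vM21, GRCm38), with capitals at the bases that differ within the pair, 1 for Defa21 and Defa22 and 3 for Defa29 and Gm7849.
Defa21, chr8:21025545-21026516, plus strand: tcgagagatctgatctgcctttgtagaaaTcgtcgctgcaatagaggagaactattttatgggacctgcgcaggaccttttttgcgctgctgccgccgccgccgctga
Defa22, chr8:21162277-21163249, plus strand: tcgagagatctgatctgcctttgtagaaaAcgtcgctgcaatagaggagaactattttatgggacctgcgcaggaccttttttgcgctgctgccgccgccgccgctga
Defa29, chr8:21325887-21327020, minus strand: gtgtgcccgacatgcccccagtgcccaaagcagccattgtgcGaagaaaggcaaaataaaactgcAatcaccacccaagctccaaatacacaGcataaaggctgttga
Gm7849, chr8:21455445-21456560, minus strand: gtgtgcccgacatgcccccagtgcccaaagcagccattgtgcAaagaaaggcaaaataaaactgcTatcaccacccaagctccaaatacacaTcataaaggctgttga
Both members of the first pair were present in B + A 10 and nearly absent in B + A 0. In the second pair the copies moved apart, Gm7849 as above and Defa29 at a ratio of 0.51.

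Most other Paneth transcripts that passed the limit were lower in B + A 10. Of 14 α-defensin genes with 300 UMIs in the list used, which left out Gm7849, 6 were lower and the median log2 ratio was −0.27. The 3 higher ones were Defa21, Defa22 and Gm14851. Defa21 and Defa22 reached 300 UMIs only through B + A 10, so that limit let them in only as higher genes. Gm7849 entered the comparison in the same way. Gm14851 had 13.4, 35.7 and 50.3 UMIs per 1000000, a ratio of 1.41 (1.28 to 1.55), and was higher in 13 of 14 clusters, but with no cell set aside its log2 ratio was −0.14. Defa30, whose coding sequence is 98.6% identical to that of Defa24, had a ratio of 1.01. Of 9 antimicrobial and secreted proteins of Paneth cells, 6 were lower, none was higher and the median was −0.74. Lyz1, which cleaves bacterial cell walls, stood at 311, 619 and 320 UMIs per 1000000, a ratio of 0.52 (0.50 to 0.53). Defa29 stood at 207, 558 and 286. Ang4, a ribonuclease with bactericidal action, had 105, 234 and 110 UMIs per 1000000, so that B + A 0 was the high library and the other two stood close together. Mmp7, the protease that activates the defensin precursors, had 119, 135 and 65.2, a ratio of 0.48 (0.45 to 0.52). Mptx2, a pentraxin made by Paneth cells, had the lowest ratio of all 8003 genes, 0.40 (0.37 to 0.43), with 90.3, 102 and 40.5 UMIs per 1000000. Mptx1 had 1136, 1337 and 802. For Mmp7, Mptx2 and Mptx1 the library that stood apart was B + A 10.

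These values were measured outside the defensin-rich cells, and the genes were not all spread alike over the kinds of cell. Over the 17 clusters into which the remaining cells fell, Lyz1 ranged from 4.02 to 12.1 UMIs per 10000 in B + A 0 and from 1.97 to 8.43 in B + A 10, against 254 and 173 in the defensin-rich cells. It was lower in B + A 10 in all 17 clusters, as were Ang4 and Defa29. Mmp7 was highest in cluster 4, led by Retnlb, at 6.59 UMIs per 10000 in B + A 0 and 4.33 in B + A 10. Its medians over the clusters were 0.317 and 0.138. Mptx1 was also among the leading genes of cluster 4. No UMI of Mmp7 or Mptx2 was found in cluster 17 of B + A 10. The defensin-rich cells themselves made up 5.92% of B + A 0 and 3.57% of B + A 10, and their own Lyz1, Ang4 and Mptx2 differed in the same direction (147 and 94.02 UMIs per 10000 for Ang4, 130 and 64.0 for Mptx2). Their α-defensins had no common direction, and the listed ones, Defa21 and Defa22 among them, summed to 5870 and 6056. Defa30 had 991 and 1175 and Defa17 749 and 892, but Defa24 had 2658 and 2484 and Defa29 467 and 409. The part that RNA from other cells had in the levels outside the defensin-rich cells was not tested. With the mix of clusters held equal the log2 ratio was −0.85 for Lyz1, −1.04 for Ang4 and −1.28 for Mptx2. These were close to −0.95, −1.08 and −1.33 without it. Mmp7 and Mptx1 moved further, from −1.05 and −0.74 to −0.75 and −0.50. When cells below the lowest UMI total of B + A 0 were also left out, Mmp7 had −0.53. Mptx1 then had −0.24, inside the limit of a called gene. Lyz1, Ang4 and Mptx2 had −0.93, −1.24 and −1.675 under the same settings.

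**Figure D3:**
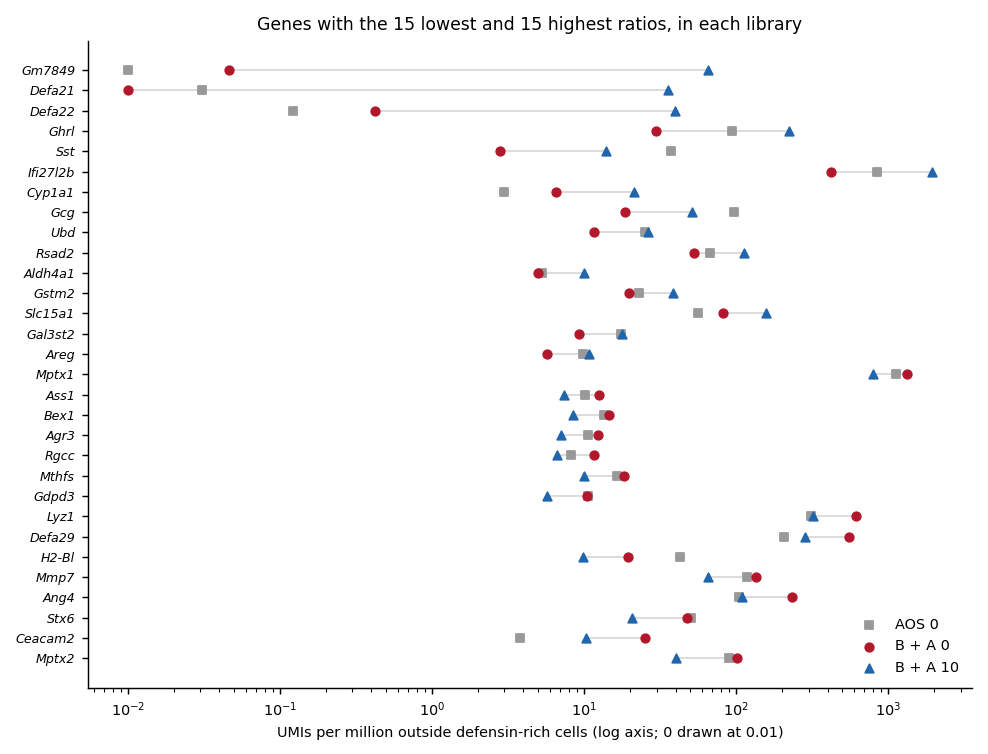
Level of the 15 genes with the lowest and the 15 with the highest ratio (rows), in UMIs per 1000000 outside the defensin-rich cells on a log axis, with 0 drawn at 0.01; squares are AOS 0, circles B + A 0 and triangles B + A 10. The AOS 0 square lies near the B + A 10 triangle for Lyz1, Ang4, Ubd, Gal3st2 and Areg and near the B + A 0 circle for Stx6, Mmp7, Mptx2, Gdpd3 and Aldh4a1.

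Goblet and secretory genes were also lower, to a smaller extent. Of 19 genes of the mucus layer, 8 were lower and none higher, with a median of −0.22. The largest difference was in Agr2, the disulfide isomerase that goblet cells need to fold mucin, with 4513, 5192 and 3283 UMIs per 1000000, a ratio of 0.63 (0.63 to 0.64). Ccl9, a chemokine, had 85.0, 99.7 and 63.1, and Tpsg1, a serine protease, 52.4, 54.7 and 38.7. The 3 most abundant members, Tff3, Zg16 and Spink4, differed by less than the limit, with ratios of 0.94, 0.90 and 0.99. Reg4, a lectin of secretory cells, had 358, 316 and 192 UMIs per 1000000, a ratio of 0.61. Of 25 genes of the secretory unfolded protein response, 8 were lower, among them the protein disulfide isomerases Pdia5 at 0.66, Txndc5 at 0.75 and Pdia3 at 0.77, and the goblet kinase Ern2 at 0.77. The exception was Hyou1, a chaperone of the endoplasmic reticulum, with 18.3, 25.3 and 41.7 UMIs per 1000000, a ratio of 1.65 (1.48 to 1.84) and higher in 13 of 14 clusters.

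With the mix of clusters held, only 1 of the 19 mucus genes remained lower by the limit, Agr2 at a log2 ratio of −0.36, and the median was 0.01. None of the 8 genes of the unfolded protein response remained lower, with Pdia5 at −0.31, Txndc5 at −0.16 and Ern2 at −0.095, and the median was −0.02. Reg4 had −0.07 once cells of 3929 UMIs were taken as well. The clusters of goblet and secretory leading genes (numbers 4, 7 and 11, led by Retnlb, Ido1 and Muc2) made up 22.6% of the cells of B + A 0 and 19.5% of those of B + A 10. Cluster 10, led by Reg4 and Ccl9 and counted apart from these, made up 5.26% and 2.67%. Its Agr2 stood at 109 and 89.9 UMIs per 10000. Of the cells of clusters 10 and 11, 25.7% and 56.9% were called doublets. Agr2 was lower within 16 of 17 clusters. Sums over a library alone cannot tell fewer cells of a type from less RNA per cell, so the values with the mix of clusters held stand beside them. The cause of the differences was not tested.

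Of all lists, the interferon-stimulated genes had the most higher members by count: 16 of 46 were higher, 1 was lower and the median log2 ratio was 0.28. These 34.8% stand against 6.15% over all genes. The share was larger for T lymphocyte genes (100%), gut hormones (54.55%), proximal small intestine genes (45.8%) and amino acid and peptide transporters (42.1%). Ifi27l2b, an interferon-inducible protein, had 842, 418 and 1952 UMIs per 1000000, a ratio of 4.67 (4.56 to 4.77). It was higher in all 17 clusters, from 7.33 to 40.4 UMIs per 10000 in the cluster led by Leap2 and from 1.81 to 7.21 in the cluster led by Olfm4 and Hells, and its log2 ratio stayed between 1.82 and 2.32 in every alternative run. Rsad2, which makes the antiviral nucleotide ddhCTP, had 67.0, 52.9 and 114 UMIs per 1000000, a ratio of 2.15 (2.0 to 2.31). Ifit1, which binds viral RNA that lacks cap methylation, had 272, 224 and 365, a ratio of 1.63 (1.57 to 1.69). Ifit3, its partner, had 49.7, 33.2 and 49.6, and Ddx58, the RNA sensor RIG-I, had 40.5, 37.5 and 53.6. For Ifi27l2b, Rsad2, Ifit1 and Ddx58 the level of AOS 0 lay between those of the busulfan libraries.

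The interferon genes did not differ alike in all cells. Rsad2 was higher in 14 of 15 clusters and Ifit1 in 14 of 17. In the ileal enterocyte-like cluster, led by Fabp6 and Slc10a2, Rsad2 was 0.916 UMIs per 10000 in B + A 0 and 0.849 in B + A 10, and Ifit1 was 4.14 and 3.21. In the cluster led by Leap2, Rsad2 was 1.36 and 3.05 and Ifit1 6.09 and 10.4. Among cells of 3929 or more UMIs the log2 ratio of Ifit1 was 0.07 and that of Rsad2 0.38, against 0.70 and 1.10 in all cells, those of Ifit3 and Ddx58 were 0.15 and 0.10, and the median of the family was −0.06. With that limit and the mix of clusters held together it was 0.29 for Ifit1, 0.65 for Rsad2 and 0.04 for the family. The neighbour of Ifi27l2b on chromosome 12, Ifi27l2a (chr12:103442167-103443680 in GRCm38, with Ifi27l2b at chr12:103450898-103457223), was the 1 lower member, at 733, 957 and 696 UMIs per 1000000, and it was lower in 16 of 17 clusters. As the paralogs may share reads their sum was also taken, which had a log2 ratio of 0.94.

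**Figure D4:**
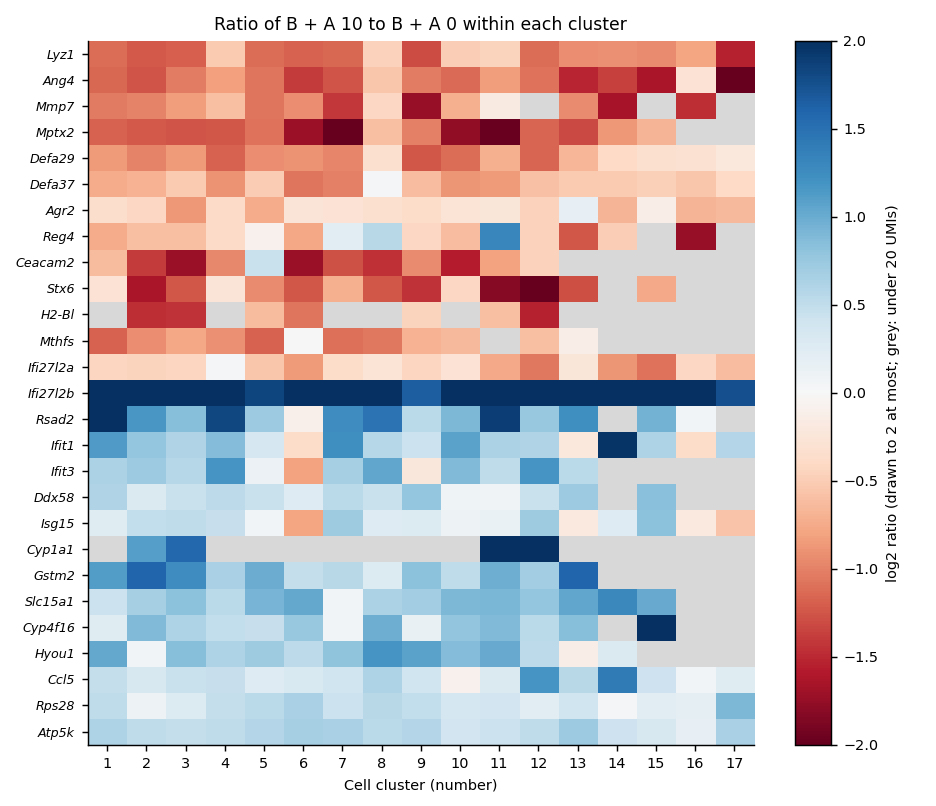
Log2 ratio of B + A 10 to B + A 0 (colour, blue higher and red lower in B + A 10, drawn to 2 at most) for selected genes (rows) within each of 17 cell clusters (columns), with 0.5 UMI added to each side and grey where both libraries held fewer than 20 UMIs. Ifi27l2b is blue and Lyz1, Ang4 and Defa29 are red in every cluster, while Rsad2, Ifit1, Ifit3 and Isg15 are red or pale in cluster 6, the ileal enterocyte-like cells.

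The promoters of these genes were searched for the core of the interferon-stimulated response element, GAAA and GAAA with any 2 bases between them, on either strand,, in the 250 bases before the start of transcription. Of 27025 genes with a promoter in RefSeq, 3.46% held a match, and of the compared genes among them 3.17%. Of the 46 interferon genes compared, 35 were found in that table and 20 held a match, 10 of the 13 that were higher in B + A 10 and 10 of the 22 others. The promoters of Rsad2 and Ifit1, the 2 highest interferon genes found in the table, are printed from RefSeq (GRCm38.p6) with each match in capitals, at 1 place in Rsad2 and at 2 places in Ifit1. Ifi27l2b had no entry.
Rsad2, chr12:26456453-26456702, minus strand: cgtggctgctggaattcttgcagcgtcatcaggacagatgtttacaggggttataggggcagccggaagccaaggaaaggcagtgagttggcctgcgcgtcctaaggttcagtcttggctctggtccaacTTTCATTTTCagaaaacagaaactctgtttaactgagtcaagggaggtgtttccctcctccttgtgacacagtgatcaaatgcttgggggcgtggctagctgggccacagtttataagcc
Ifit1, chr19:34640639-34640888, plus strand: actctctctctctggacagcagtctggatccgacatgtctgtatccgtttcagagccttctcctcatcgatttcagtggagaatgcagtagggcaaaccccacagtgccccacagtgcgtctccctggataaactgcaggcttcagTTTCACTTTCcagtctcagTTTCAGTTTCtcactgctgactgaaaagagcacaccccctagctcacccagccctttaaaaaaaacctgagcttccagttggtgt
A match describes the letters only.

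Antigen presentation genes did not move as a family: of 28 members, 4 were higher and 1 lower, with a median of 0.05. The class I genes H2-K1 and H2-D1 and their partner B2m had ratios of 1.03, 0.98 and 0.98. H2-Bl, another class I gene, had 42.9, 19.5 and 9.78 UMIs per 1000000, a ratio of 0.50 (0.42 to 0.60), and was lower in all 7 clusters with enough UMIs. H2-Q1 and H2-Q2 were higher at 1.43 and 1.35, and among cells of 3929 UMIs both had log2 ratios below 0. Ubd, a ubiquitin-like protein that interferon and tumour necrosis factor induce, had 25.1, 11.6 and 26.2 UMIs per 1000000. Its ratio was 2.26 with an interval of 1.94 to 2.64, but its log2 ratio was 0.13 among cells of 3929 UMIs, against 1.18 in all cells. With the mix of clusters held at that depth the log2 ratio of Ubd was 0.32.

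Genes that handle foreign compounds differed one by one. Of 35 cytochrome P450, glucuronosyltransferase and carboxylesterase genes, 8 were higher and 1 lower, with a median of 0.19. Cyp1a1, the monooxygenase that the aryl hydrocarbon receptor switches on, had 3.00, 6.57 and 21.4 UMIs per 1000000, a ratio of 3.27 (2.70 to 3.98). It was higher in each of the 4 clusters with enough UMIs, from 0.558 to 1.20 per 10000 in the Leap2 cluster and from 0.343 to 1.44 in the cluster led by S100g. The receptor binds a core of GCGTG, which the 250 bases before the start of Cyp1a1 held once and which 30.9% of all promoters and 52.2% of those of the compared genes held.
Cyp1a1, chr9:57697363-57697612, plus strand: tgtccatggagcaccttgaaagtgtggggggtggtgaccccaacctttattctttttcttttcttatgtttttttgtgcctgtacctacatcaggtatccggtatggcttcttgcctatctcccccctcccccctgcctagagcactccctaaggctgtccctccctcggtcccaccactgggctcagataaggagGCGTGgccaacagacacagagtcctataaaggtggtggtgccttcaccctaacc
Cyp4f16 had 72.7, 57.9 and 105 UMIs per 1000000, a ratio of 1.82, but its log2 ratio was 0.089 among cells of 3929 UMIs, against 0.86. With the mix of clusters held at that depth it was 0.49. With the mix of clusters held, 3 of the 35 genes were higher and 4 lower. Among 20 glutathione S-transferases, which couple glutathione to reactive compounds and take part in the clearance of busulfan, Gstm2 and Gstm6 were higher at 1.95 and 1.5 and Gstm3 was lower at 0.80. Gstm2 stood at 23.0, 19.7 and 38.5 UMIs per 1000000, and was higher in 13 of 13 clusters. Gstm2 may share reads with its paralog Gstm1, and the sum of both had a log2 ratio of 0.28, short of the limit. Among cells of 3929 UMIs Gstm6 had a log2 ratio of 0.12, and 0.35 with the mix of clusters held as well. None of 16 genes of glutathione synthesis and of the NRF2 response passed the limit.

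Absorptive genes of the upper small intestine were higher, and the direction depended on which cells were counted. Of 24 proximal genes 11 were higher and 1 lower (median 0.30), of 19 amino acid and peptide transporters 8 were higher and none lower (0.24), and of 32 genes of fat absorption 8 were higher and 1 lower (0.20). Slc15a1, the brush border peptide transporter, had 56.5, 82.1 and 158 UMIs per 1000000, a ratio of 1.92 (1.81 to 2.04) and higher in 15 of 15 clusters. Apoa4, an apolipoprotein of chylomicrons, had 1074, 1144 and 1467, Leap2, an antagonist of the ghrelin receptor, 99.4, 104 and 145, and Lct, lactase, 85.6, 111 and 145. Cd36, a fatty acid receptor, had 9.57, 11.3 and 18.9. The lower member of the fat family was Apoc2, an activator of lipoprotein lipase, at 3.00, 19.3 and 12.4.

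The 3 clusters whose leading genes include Apoa4, Sis and S100g, genes of absorptive cells (numbers 2, 3 and 12), made up 21.8% of the cells of B + A 0 and 26.9% of those of B + A 10. With the mix of clusters held, the medians were 0.10 for proximal genes, 0.10 for amino acid transporters and 0.05 for fat absorption, and Slc15a1 had 0.78. When only cells with 3929 or more UMIs were counted, all cells of B + A 0 and 1940 of B + A 10 remained, among them 16.7% of the cells of those clusters and 54.2% of the cells of 4 clusters led by genes of division, stem cells or secretory progenitors (numbers 1, 5, 8 and 10). The median of the proximal genes was then −0.70, Apoa4 had −0.84 and Slc15a1 −0.27, and with the mix held at that depth they had −0.23, −0.36 and 0.24. The level of upper intestinal genes and the depth of the cells cannot be told apart in these libraries. Distal genes showed no common direction (3 of 19 higher, 2 lower), with Saa1, serum amyloid A, at a ratio of 0.63 and Slc10a2, the ileal bile acid transporter, at 0.77.

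**Figure D5:**
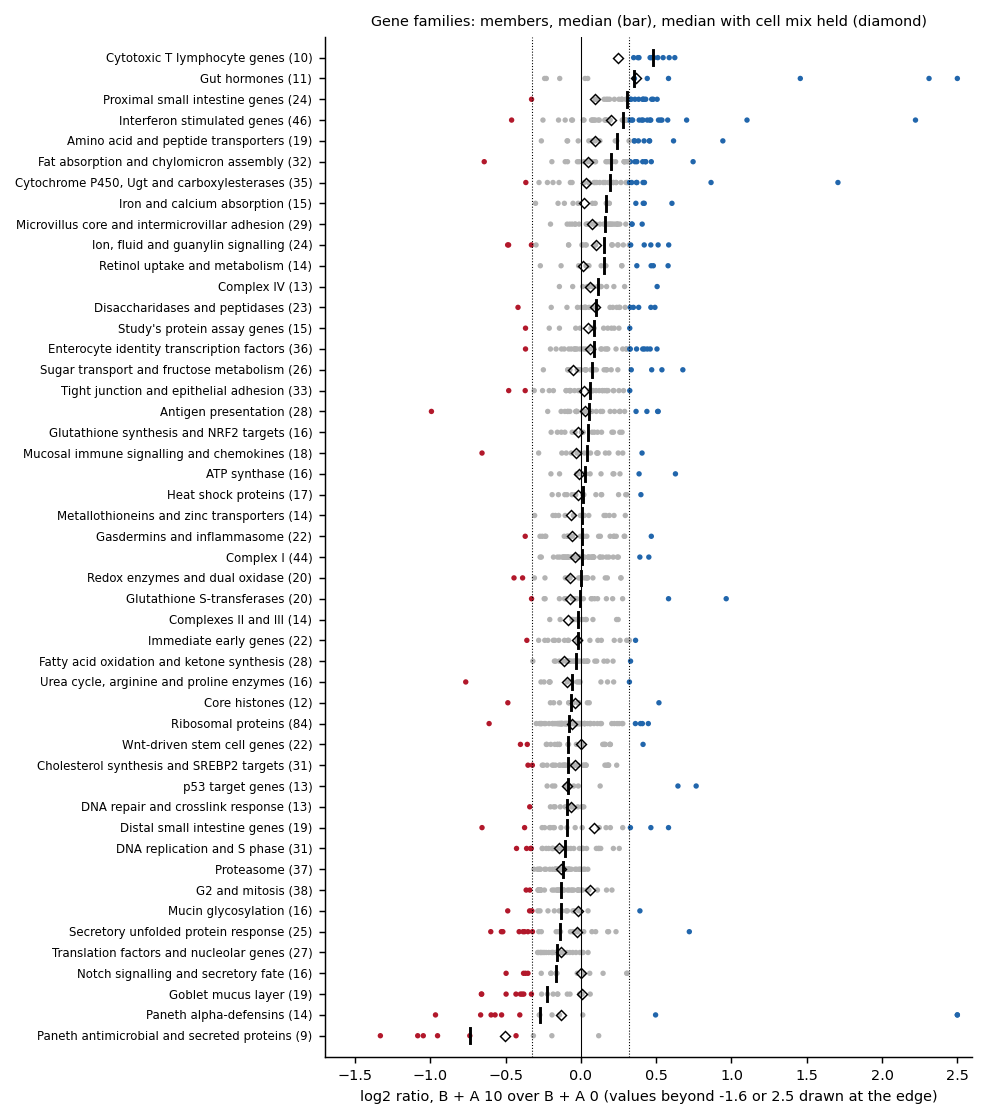
Log2 ratio of B + A 10 over B + A 0 for the members (points) of each gene family with 9 or more compared genes (number in brackets), with blue for called higher and red for called lower; the bar is the median and the diamond the median with the mix of clusters held. T lymphocyte genes and gut hormones have the highest medians (0.48 and 0.36) and Paneth antimicrobial genes the lowest (−0.74), and the diamonds of the proximal and goblet families lie close to 0.

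Hormone genes were higher as a family, through very few cells. Of 11 genes 6 were higher and none lower, with a median of 0.36, but among cells of 3929 UMIs the median was −0.034, and −0.24 with the mix of clusters held as well. Ghrl, which encodes ghrelin, had 94.8, 29.7 and 224 UMIs per 1000000, a ratio of 7.53 (6.93 to 8.19). In B + A 10 the 3 cells with most of them held 1870, 1300 and 715 of 4643 UMIs, and in B + A 0 they held 133, 111 and 89 of 638. Without the top 3 cells of each library the log2 ratio was 1.36 in place of 2.91, and among cells of 3929 UMIs it was 0.22. Sst, which encodes somatostatin, had 37.1, 2.79 and 13.9, and 2 cells of B + A 10 held 127 and 92 of its 288 UMIs, where the highest cell of B + A 0 held 6 of 60. Gcg, the source of GLP-1, had 96.9, 18.7 and 51.4 UMIs per 1000000, with 11 cells of 10 or more UMIs in B + A 10 and 7 in B + A 0. For Sst and Gcg the highest library was AOS 0. The cluster led by hormone genes held 41 cells of B + A 0 and 70 of B + A 10, 1.36% of each library. The marker genes of enteroendocrine cells other than hormones did not differ by the limit in sum, with 98.7 and 93.2 UMIs per 1000000 for 8 markers.

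All 10 T lymphocyte genes with 300 UMIs were higher, with a median log2 ratio of 0.48 and a range of 0.35 to 0.62. Gzma, a granzyme of cytotoxic cells, had 335, 379 and 540 UMIs per 1000000, a ratio of 1.42. Ccl5, a chemokine of activated T cells, had 261, 468 and 702, a ratio of 1.5, and Cd3g, a chain of the T cell receptor complex, had 29.4, 29.2 and 40.4. All 9 T cell markers were detected, and their sum was 802, 1084 and 1569. Both clusters led by T cell genes (numbers 13 and 16) made up 2.93% of the cells of B + A 0 and 3.88% of those of B + A 10. With the mix held 3 of the 10 genes remained higher by the limit and the median was 0.25, and among cells of 3929 UMIs the median was −0.09. In the larger of these clusters Ccl5 was 58.2 UMIs per 10000 in B + A 0 and 85.6 in B + A 10, and in the smaller one 69.9 and 72.6. The smaller one, cluster 16 with 20 and 30 cells, also held goblet transcripts, with Agr2 at 234 and 147 UMIs per 10000, against 289 and 221 in cluster 4 and 3.76 and 4.20 in cluster 13. Of other blood cells, the marker sets of B and plasma cells and of myeloid cells each summed to 2.75 UMIs per 1000000 or less in both busulfan libraries. A longer list of myeloid genes summed to 42.4 in B + A 0 and 35.3 in B + A 10, of which Cd14 made up 37.5 and 29.8, a ratio of 0.79. Erythroid genes came almost wholly from 1 cell in each, with 778 of 805 and 439 of 483 UMIs of Hbb-b1.

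Other genes with low ratios were of varied function. Ceacam2, a cell adhesion molecule, had 3.79, 25.1 and 10.3 UMIs per 1000000, a ratio of 0.41 (0.35 to 0.48), and was lower in 11 of 12 clusters. It may share reads with its paralog Ceacam1, and the sum of both had a log2 ratio of −0.52, against −1.29 for Ceacam2 alone. Stx6, a SNARE protein of the trans-Golgi, had 50.9, 47.7 and 20.6, a ratio of 0.432 (0.385 to 0.484), and was lower in 14 of 14. Gdpd3, a lysophospholipase, had 10.7, 10.5 and 5.73. Ass1, which makes argininosuccinate in the urea cycle, had 10.2, 12.5 and 7.37, and was the 1 lower gene among 16 of the urea cycle and of arginine and proline metabolism. Rgcc, Agr3 and Bex1 had ratios of 0.57, 0.58 and 0.58. Stx6 kept a log2 ratio between −1.56 and −1.11, and Ceacam2 between −1.36 and −1.14, over every alternative that gave a value. Mthfs, a folate enzyme, had a ratio of 0.55, while its copy Mthfsl, named here after the values were seen, had a log2 ratio of 0.82, and the sum of both had −0.06. Such copies can share reads, and only the sum is free of that. Among the highest genes outside the families, Aldh4a1, an enzyme of proline breakdown, had 5.29, 4.98 and 9.97 UMIs per 1000000, Areg, a ligand of the EGF receptor, 9.85, 5.73 and 10.7, and Gal3st2, a mucin sulfotransferase, 17.4, 9.31 and 17.7. Among cells of 3929 UMIs Gal3st2 had a log2 ratio of 0.090, against 0.92, and with the mix of clusters held as well 0.40.

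Gene families that follow DNA damage and division had small median log2 ratios. Of 13 p53 targets, 2 were higher, Pmaip1 (the cell death protein NOXA) at 1.56 with 21.3, 21.8 and 34.1 UMIs per 1000000, and Zmat3, a zinc finger protein, at 1.70 with 5.50, 5.87 and 9.97, and the family median was −0.09. Among cells of 3929 UMIs Pmaip1 had a log2 ratio of 0.24, against 0.64, and with the mix of clusters held as well 0.40. Zmat3 kept a log2 ratio between 0.63 and 0.85 over every alternative that gave a value. Cdkn1a, the p53-driven inhibitor of the cell cycle, had a ratio of 1.09. Of 31 replication genes 4 were lower and none higher, with a median of −0.10, and of 38 genes of G2 and mitosis 2 were lower, with −0.13. These counts, 12.9% and 5.26%, stand against 3.59% over all genes. The share of p53 targets that were higher, 15.4%, stands against 6.15%. Among cells of 3929 UMIs, Tk1, Aurka and Cdk1, all lower by the limit, had log2 ratios of 0.05, 0.17 and 0.15. With the mix of clusters held as well these were −0.20, 0.045 and −0.0016. Of 15 genes compared here whose proteins the study assayed or that it named as regulators, 1 was higher, Klf7 at a log2 ratio of 0.32, and 1 lower, Sox4 at a ratio of 0.77. Vil1, the villus actin bundler, had 500, 478 and 531 UMIs per 1000000, a ratio of 1.11. Dsg2, a desmosomal cadherin, had 125, 121 and 144, a ratio of 1.19, and Casp8 98.9, 96.2 and 112, a ratio of 1.17. For Vil1, Dsg2 and Casp8 the log2 ratios were 0.15, 0.25 and 0.22 in all cells. Among cells of 3929 UMIs they were −0.30, 0.046 and −0.040. With the mix of clusters held as well they were −0.070, 0.069 and 0.049.

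Ribosomal protein genes, which make up 17.2% and 17.1% of the UMIs, kept together apart from a few. Of 84 genes 4 were higher and 1 lower, with a median of −0.08. The higher ones were Rps28, Rpl38, Rps29 and Rps27, parts of the small and large ribosomal subunits, at ratios of 1.36, 1.33, 1.31 and 1.28, and each was higher in all 17 clusters. By transcript length they ranked 1, 2, 4 and 6 from the shortest of the 84. Of the genes of the respiratory chain, Atp5k, a small subunit of ATP synthase, had 588, 745 and 1150 UMIs per 1000000, a ratio of 1.54, and was higher in 17 of 17 clusters. Translation factors and nucleolar genes (27 members) and proteasome subunits (37 members) had no member past the limit, with medians of −0.16 and −0.12.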

How the data were processed

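Single cells of the small intestine were sequenced with 10x Genomics 3′ version 2 chemistry, 1 library per group. Cell Ranger 2.2.0 and the mm10 build are named in the submitters' processing notes. As deposited, each value is a natural log, taken by the authors, of 1 plus UMIs per 10000 UMIs of the cell, in 1 table of 13891 genes and 12653 cells, after the authors removed cells with fewer than 200 genes and genes found in fewer than 3 cells. Each cell's values were turned back by dividing by its smallest value above 0, which gave whole UMIs within 0.01 for 100% of 24333763 values. UMIs were summed per gene and library outside cells with 1500 or more defensin UMIs per 10000, and ratios were taken per 1000000 with exact binomial 95% intervals, which cover counting error only. Clusters came from 2000 variable genes, 30 principal components, 20 neighbours and the Leiden method at resolution 1 (scanpy 1.11.5, leidenalg 0.10.2), and doublets from the highest 5% of scores in each library and were kept. With the mix of clusters held, each cluster weighed the same in both libraries. The ratio step was tested on simulated data. Members, lists and limits were chosen with earlier results of these data known. Named genes were the 15 highest and 15 lowest ratios, in each list the 3 members with most UMIs and those past the limit (at most 6 per list), and genes whose proteins the study assayed or that it named as regulators. Outside this rule, Mthfsl, Defa20, Defa3 and further members of the defensin family in the set-aside cells, Fut4, Orai2, Tfe3 and Fdxr at the limit, and genes that lead a cluster were named after their values were seen. Python 3.11.15, numpy 2.4.6, scipy 1.17.1 and pandas 2.3.3 were used.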

Additional observations from a re-analysis of the deposited data

Results flagged for a closer look

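The comparison left out the defensin-rich cells, and signal well above the control library was found there. In those cells of B + A 10, Defa21 took 56.2 UMIs per 10000, against 0.0219 in B + A 0 and 0.0117 in AOS 0. Defa22 took 61.4, against 0.711 and 0.223, and Gm7849 took 80.6, against 0.0306 and 0.0196. Each library combined the cells of 6 mice, and which mouse a cell came from was not analysed here.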

How the results depend on the processing

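No paired analysis was possible because each group is 1 library, and no library could be left out in turn. The 492 higher and 287 lower genes became 956 and 162 when no cell was set aside, 766 and 581 at a limit of 100 UMIs, 271 and 108 at 1000 UMIs, and 60 and 35 at 1.5-fold. They were 324 and 199 with the mix of clusters held and 354 and 156 with each cell thinned to 1000 UMIs. Limits of 500 genes or 2000 UMIs per cell removed no cell. After the data were seen, 3 alternatives were added. Without clusters of over 20% called doublets the counts were 473 and 241. Among cells of at least 3929 UMIs they were 501 and 646, and with the mix of clusters held as well 298 and 442. Under this pair of settings the median log2 ratio was −0.034 and −0.24 for gut hormones and −0.089 and −0.25 for T lymphocyte genes. The log2 ratio was likewise −0.84 and −0.36 for Apoa4, 0.17 and 0.045 for Aurka, −0.089 and −0.26 for Cd3g, −0.21 and −0.40 for Gzma, −0.83 and −0.35 for H2-Q1, −0.50 and −0.15 for H2-Q2, −0.81 and −0.23 for Lct, −0.75 and −0.040 for Leap2, and −0.94 and −0.64 for S100g. Under the UMI limit alone it was −0.63 for Cd36, 0.15 for Cdk1, 0.12 for Hbb-b1, −0.27 for Slc15a1 and 0.052 for Tk1. With no cell set aside Gm14851 had −0.14. Thinning gave −0.051 for Klf7, and a defensin limit of 500 gave 4.21 for Hbb-b1, whose UMIs sit in 1 cell of each library. The cause of these changes was not tested. Without replicates no value here separates treatment from library.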

Other observations

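The share of genes past the limit varied with transcript length. A length was found for 7775 of the 8003 genes. Of 140 genes with transcripts under 500 bases, 13.6% were higher in B + A 10 and 9.29% lower, and of 1556 genes from 500 to 1000 bases 4.24% and 4.88%. Of 2631 genes from 2000 to 4000 bases, 7.37% were higher and 2.81% lower, and of 1249 longer genes 8.41% and 1.28%. The part of length in the ratios was not tested.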
